A study of Mus musculus with 18 samples.

Results

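Potassium channel genes were followed in the brain tissue resected around experimental metastases of melanoma, breast and lung cancer. The members were taken from the annotated expression table by name alone, as every symbol that starts with KCN and a letter and ends in a number, which gave 92 of its 16925 genes. Each of the 92 matched 1 gene of the count table with equal counts in all 18 libraries, and 80 had enough reads to be tested. The melanoma mice carried B16-F10-BrM4 cells, brain-seeking cells derived from mouse melanoma B16-F10, and gave libraries 1 to 6. The breast cancer mice carried EO771-BrM3 cells, brain-seeking cells derived from the mouse mammary carcinoma EO771, and gave libraries 14 to 19. The lung cancer mice carried 482N1 cells and gave libraries 7 to 11 and 13. The labels give all 18 mice as wild type, injected with 40000 cells and killed 10 days later. The labels name no tumour-free brain, so every difference is between tumour models, and each model rests on 1 cell line.

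Potassium channels let potassium ions leave or enter a cell and so set its resting voltage and how fast an electrical signal ends. Pore subunits form the channel itself, with voltage-gated (Kv), calcium- or sodium-activated, inward rectifier (Kir) and two-pore-domain (K2P) families, while auxiliary subunits change the gating or traffic of the pores. In brain, Kv channels shape neuronal firing, Kir4.1 of astrocytes takes up potassium released by active neurons, and several channels of microglia and other immune cells set the ion gradients that accompany their activation.

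Library totals ran from 7366250 to 14533877 reads, so that 3 reads in a library were worth 0.206 to 0.407 CPM (the usual depth-scaled count, a gene's reads set against the total of its library). Levels are CPM on library sizes scaled by TMM, differences are log2 fold changes with their standard error (SE), and a gene was called at an adjusted p under 0.05 in edgeR's quasi-likelihood test over all 17174 genes tested. Neuronal marker genes summed to 3552 to 6939 CPM in melanoma libraries, 3032 to 4595 CPM in breast libraries and 4169.6 to 5847 CPM in lung libraries. Tumour genes were read too. The 7 melanocyte markers summed to 3723 to 23308 CPM in melanoma libraries, 12.9 to 20.5 CPM in breast libraries and 10.3 to 12.4 CPM in lung libraries. The 7 markers of simple epithelium summed to 4.94 to 5.78 CPM in melanoma libraries, 66.3 to 167 CPM in breast libraries and 309 to 1318 CPM in lung libraries. In such bulk tissue, fewer cells of a type and less RNA per cell cannot be told apart.

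Libraries melanoma 3, breast 18 and breast 19 stood apart and touch most of what follows. The slope of log2 CPM against the log2 of transcript length was -0.26 in melanoma 3, -0.28 in breast 18 and -0.22 in breast 19, against -0.12 to 0.19 in the other 15 libraries, so these libraries were poor in long transcripts. Channel transcripts are long: the median of the tested members was 3920.5 bases, against 3125 bases over all genes tested, and 55 of the 80 were above the median over all genes. The summed level of all channel genes was 1771 CPM in melanoma 3, 1931 CPM in breast 18 and 2624 CPM in breast 19, and 2709.8 to 5517 CPM in the other 15 libraries. Breast 18 and breast 19 also had the lowest totals, 7366250 and 7432159 reads. Melanoma 3 had 12956332 reads, and the other 15 libraries had at least 10669355.

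A set of 4 members separated 1 model from the 12 libraries of both others: Kcnj13 was higher in melanoma, and Kcnn4, Kcnk6 and Kcne5 were lower in melanoma. Kcne5 was in addition higher in lung than in all 12 other libraries. Of all genes tested, 15.9% had 1 model apart in this way (2.77% with melanoma highest, 5.84% with melanoma lowest, 2.91% with lung highest), so the 4 of 80 members were a smaller share than the background. In melanoma against lung 5 of the 80 members were called (6.25%), 1 higher and 4 lower, against 23.2% of all genes (8.51% higher and 14.7% lower). In breast against lung 1 was called (1.25%), as lower, against 18.3% of all genes (11.2% higher and 7.16% lower). In melanoma against breast 4 were called (5.00%), 1 higher and 3 lower, against 28.9% of all genes (9.76% higher and 19.2% lower). A test of any difference among the models called 4 (5.00%), against 35.8% of all genes. All 4 counts were below the share over all genes. Without melanoma 3, breast 18 and breast 19, the calls were 12 of 80 in melanoma against lung, 3 in breast against lung, 12 in melanoma against breast and 17 for any difference, where the background was 33.6%, 25.0%, 34.2% and 48.1%, each above the share of members called. Without melanoma 3 alone, 40 of 80 were called in melanoma against breast (37 higher and 3 lower), where the background was 46.6% (23.2% higher and 23.4% lower), and 8 in melanoma against lung (background 26.7%), 4 in breast against lung (23.7%) and 31 for any difference (50.3%). Leaving out melanoma 3 alone thus raised the count in melanoma against breast from 4 to 40. Neuronal markers called higher there went from 1 to 6 of 7 tested, and excitatory forebrain neuron markers from 0 to 4 of 6. The striatal neuron markers stayed at 0 of 6. With breast 18 and breast 19 left out as well the count of members was 12, and the cause was not tested. Kcnj13, Kcnn4, Kcnk6 and Kcne5 were called in melanoma against both others in all 33 alternative settings.

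**Figure D1:**
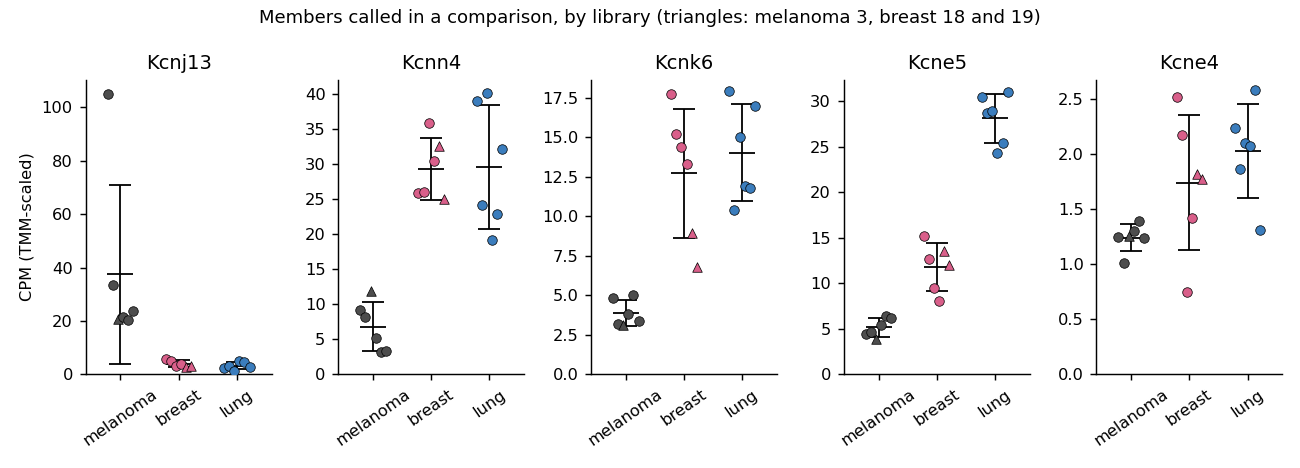
CPM on TMM-scaled library sizes (linear axes from 0) of the 5 members called in a comparison, 1 point per library, with the mean and SD of 6 libraries per model and triangles for melanoma 3, breast 18 and breast 19. Kcnj13 was above 20 CPM in all melanoma libraries and below 6 CPM in the 12 others, and Kcne5 formed 3 groups that did not overlap.

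Kcnj13 encodes Kir7.1, an inward rectifier known in mammals from choroid plexus and retinal pigment epithelium and, in zebrafish, from pigment cells, where mutants have altered stripes. Its level was 105, 33.5, 20.7, 21.5, 20.5 and 23.7 CPM in melanoma libraries 1 to 6. It was 5.75, 5.17, 3.29, 3.86, 2.66 and 3.14 CPM in breast libraries 14 to 19. It was 2.55, 2.96, 1.42, 5.06, 4.46 and 2.78 CPM in lung libraries 7 to 11 and 13. Every melanoma library was above every other, and melanoma 1 was far above the other 5. The log2 fold change was 3.55 ± 0.43 (SE) in melanoma against lung (adjusted p = 3.4e-06) and 3.22 ± 0.43 in melanoma against breast (adjusted p = 7.7e-06), while breast and lung differed by 0.34 ± 0.43 (adjusted p = 0.66). The melanocyte markers, all 7 of them called higher in melanoma, summed to 15202 CPM in melanoma 1 and to 23308 CPM in melanoma 3, the library with the most. The 6 choroid plexus markers summed to 390 to 1044 CPM in melanoma libraries, 360 to 671 CPM in breast libraries and 446 to 888 CPM in lung libraries, with the lowest melanoma sum in melanoma 1. Of these 6 markers, 1 was called lower in melanoma against lung and 1 higher in melanoma against breast. The part of either cell type in the Kcnj13 difference was not tested. Kcnj13 lies on chromosome 1 and shares annotated exons with Gigyf2 on the opposite strand, and how the counting used strand is not given in the sources used here. Gigyf2 was at 41.2 to 82.7 CPM in melanoma libraries, 43.5 to 75.9 CPM in breast libraries and 52.1 to 78.0 CPM in lung libraries.

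Kcnn4 encodes KCa3.1, the intermediate-conductance calcium-activated channel of T cells, microglia and macrophages. It was at 9.12, 8.19, 11.8, 5.20, 3.24 and 3.30 CPM in melanoma libraries 1 to 6. Breast libraries 14 to 19 held 25.8, 26.0, 35.8, 30.4, 32.6 and 25.0 CPM, and lung libraries 7 to 11 and 13 held 38.9, 24.2, 40.1, 19.1, 22.9 and 32.1 CPM. The melanoma libraries lay below all 12 others, while breast and lung libraries overlapped. The log2 fold change was -2.11 ± 0.28 (SE) in melanoma against lung (adjusted p = 1.2e-05) and -2.09 ± 0.29 in melanoma against breast (adjusted p = 1.1e-05). In breast against lung it was -0.01 ± 0.27 (adjusted p = 0.98).

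Kcnk6 encodes TWIK-2, a K2P channel known in macrophages as a route of potassium efflux. Melanoma libraries 1 to 6 held 4.85, 3.20, 3.13, 3.81, 5.01 and 3.38 CPM. Breast libraries 14 to 19 held 17.7, 15.2, 14.4, 13.3, 8.95 and 6.82 CPM, and lung libraries 7 to 11 and 13 held 17.9, 10.4, 15.1, 11.9, 11.8 and 17.01 CPM. Again every melanoma library was lowest, and the 2 lowest breast libraries were 18 and 19. The log2 fold change was -1.85 ± 0.22 (SE) in melanoma against lung (adjusted p = 2.8e-06), -1.72 ± 0.22 in melanoma against breast (adjusted p = 5.6e-06) and -0.13 ± 0.21 in breast against lung (adjusted p = 0.73).

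Markers of microglia and macrophages were also lower in melanoma than in both other models. The 7 microglial markers summed to 354 to 520 CPM in melanoma libraries, 1066 to 1592 CPM in breast libraries and 1059.7 to 1723 CPM in lung libraries. Of the 7, 6 were called lower in melanoma against lung and 5 in melanoma against breast. The 6 macrophage and monocyte markers summed to 25.6 to 197 CPM in melanoma libraries, 405 to 721 CPM in breast libraries and 364 to 959 CPM in lung libraries, and 5 were called lower in melanoma in both comparisons. The 6 T cell markers reached only 5.25 to 16.98 CPM in melanoma libraries, 13.2 to 34.7 CPM in breast libraries and 8.13 to 17.7 CPM in lung libraries. Of the 6, 4 were called lower in melanoma against breast, while in melanoma against lung edgeR called 0 (1 at an unadjusted p under 0.05) and DESeq2 called 1. The 6 neutrophil markers summed to 4.31 to 8.34 CPM in melanoma libraries, 96.3 to 288 CPM in breast libraries and 25.7 to 214 CPM in lung libraries, with 5 called lower in melanoma against lung and 6 in melanoma against breast. Within melanoma, Kcnn4 was higher in melanoma 1, 2 and 3 than in melanoma 4, 5 and 6. In libraries 1 to 6 the melanocyte markers summed to 15202, 13630, 23308, 7261, 4600.5 and 3723 CPM. The microglial markers there summed to 520, 396, 354, 396, 472 and 486 CPM. The macrophage and monocyte markers summed to 197, 34.5, 45.8, 28.3, 30.6 and 25.6 CPM. The part of these cells and of tumour content in the channel differences was not tested. Kcnk13 encodes THIK-1, the K2P channel that sets the resting potential of microglia. It was at 5.09 to 14.3 CPM in melanoma libraries (median 9.28), 12.2 to 17.01 CPM in breast libraries (median 13.7) and 11.5 to 14.4 CPM in lung libraries (median 13.6). Its log2 fold change was -0.42 ± 0.19 (SE) in melanoma against lung (adjusted p = 0.14) and -0.52 ± 0.19 in melanoma against breast (adjusted p = 0.051), so it was not called in either. It was called lower in melanoma against breast in 6 of 33 alternative settings (among them the DESeq2 test, adjusted p = 0.037, and without melanoma 6, adjusted p = 0.019) and in melanoma against lung in 1 (without melanoma 6, adjusted p = 0.039).

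Kcne5 encodes a single-span auxiliary subunit that alters Kv7.1 and other Kv pores, and it was the only member called in all 3 comparisons. Its level was 4.41, 4.68, 3.84, 5.39, 6.40 and 6.19 CPM in melanoma libraries 1 to 6. It was 15.2, 12.6, 9.43, 8.04, 13.6 and 12.01 CPM in breast libraries 14 to 19. It was 30.4, 28.7, 28.9, 24.3, 25.4 and 31.0 CPM in lung libraries 7 to 11 and 13. The 3 models formed 3 ranges that did not overlap, lowest in melanoma, middle in breast and highest in lung. The log2 fold change was -2.45 ± 0.16 (SE) in melanoma against lung (adjusted p = 1.3e-09), -1.25 ± 0.16 in breast against lung (adjusted p = 7e-06) and -1.20 ± 0.16 in melanoma against breast (adjusted p = 9.4e-06). The epithelial marker sums, given above, had the same order of models. Within lung the epithelial sum varied from 309 CPM in lung 10 to 1318 CPM in lung 9, where Kcne5 was at 24.3 CPM and 28.9 CPM. Within breast the epithelial sum varied from 66.3 CPM in breast 14 to 167 CPM in breast 18. Kcne5 ran the other way there, with 15.2 CPM in breast 14 and 13.6 CPM in breast 18. The part of epithelial tumour RNA was not tested.

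Kcne4, an auxiliary subunit that inhibits Kv7.1 and Kv1.3 pores, was the fifth call in melanoma against lung and a weak one. It was at 1.25, 1.01, 1.25, 1.30, 1.39 and 1.24 CPM in melanoma libraries 1 to 6, against 2.24, 1.87, 2.10, 2.07, 2.58 and 1.31 CPM in lung libraries 7 to 11 and 13. Lung 13 lay inside the melanoma range. The log2 fold change was -0.71 ± 0.23 (SE; adjusted p = 0.031), and it was called in 22 of 33 alternative settings. Kcne3, a subunit that holds Kv7.1 open in epithelia, had the largest difference of any member not called, with a log2 fold change of 2.04 ± 0.82 in melanoma against breast (adjusted p = 0.069). In breast against lung its log2 fold change was -1.59, also not called. Kcne3 was called in 5 of 32 alternative settings in melanoma against breast and in 3 of 33 in breast against lung. It was at 1.40, 1.48, 8.23, 0.37, 0.00 and 0.17 CPM in melanoma libraries 1 to 6 and at 0.22 to 0.98 CPM in breast libraries, so that melanoma 3 alone was above 1.5 CPM. Several of these values were at or under 3 reads. Kcne3 also shares annotated exons with Gm34821 on the opposite strand.

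The windows around the annotated start sites of Kcnj13, Kcnn4 and Kcne5 are printed because these genes set the models apart, and Kcnk6 was not in the table used. Each runs from 250 bases before the start to 50 after it, 5′ to 3′ on the gene's strand, from RefSeq on GRCm38.p6. Kcnj13 is at chr1:87394680-87394979 (minus strand), Kcnn4 at chr7:24370013-24370312 (plus strand) and Kcne5 at chrX:142306149-142306448 (minus strand). Capitals mark a match to 1 of 3 motifs chosen after the values were seen and searched on both strands: the M-box TCATGTG, known as a site of the melanocyte factor MITF, the E-box CACGTG and the AP-1 site TGANTCA.
Kcnj13: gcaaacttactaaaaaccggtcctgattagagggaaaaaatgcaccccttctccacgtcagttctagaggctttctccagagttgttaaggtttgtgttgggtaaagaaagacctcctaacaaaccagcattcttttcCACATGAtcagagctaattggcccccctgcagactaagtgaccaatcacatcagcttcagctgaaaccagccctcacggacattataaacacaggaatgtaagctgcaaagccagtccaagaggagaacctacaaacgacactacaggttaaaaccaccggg
Kcnn4: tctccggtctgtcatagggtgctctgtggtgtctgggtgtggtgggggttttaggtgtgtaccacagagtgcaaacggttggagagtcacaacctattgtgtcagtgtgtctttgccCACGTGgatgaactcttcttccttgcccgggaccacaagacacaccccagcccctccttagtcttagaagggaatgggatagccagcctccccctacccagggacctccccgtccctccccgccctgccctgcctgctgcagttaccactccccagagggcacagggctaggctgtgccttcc
Kcne5: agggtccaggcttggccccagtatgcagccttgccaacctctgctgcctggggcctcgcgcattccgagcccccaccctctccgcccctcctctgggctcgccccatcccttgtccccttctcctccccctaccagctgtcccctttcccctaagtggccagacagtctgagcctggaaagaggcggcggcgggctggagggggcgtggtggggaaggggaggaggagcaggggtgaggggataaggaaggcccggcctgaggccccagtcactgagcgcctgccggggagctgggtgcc
The Kcnj13 window held an M-box, on the opposite strand, at bases 139 to 145, and the Kcnn4 window an E-box at bases 118 to 123. Of 32851 windows of this length, 3.77% held the M-box, 7.15% the E-box and 7.81% the AP-1 letters, so each match is a description of the letters and no more.

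**Figure D2:**
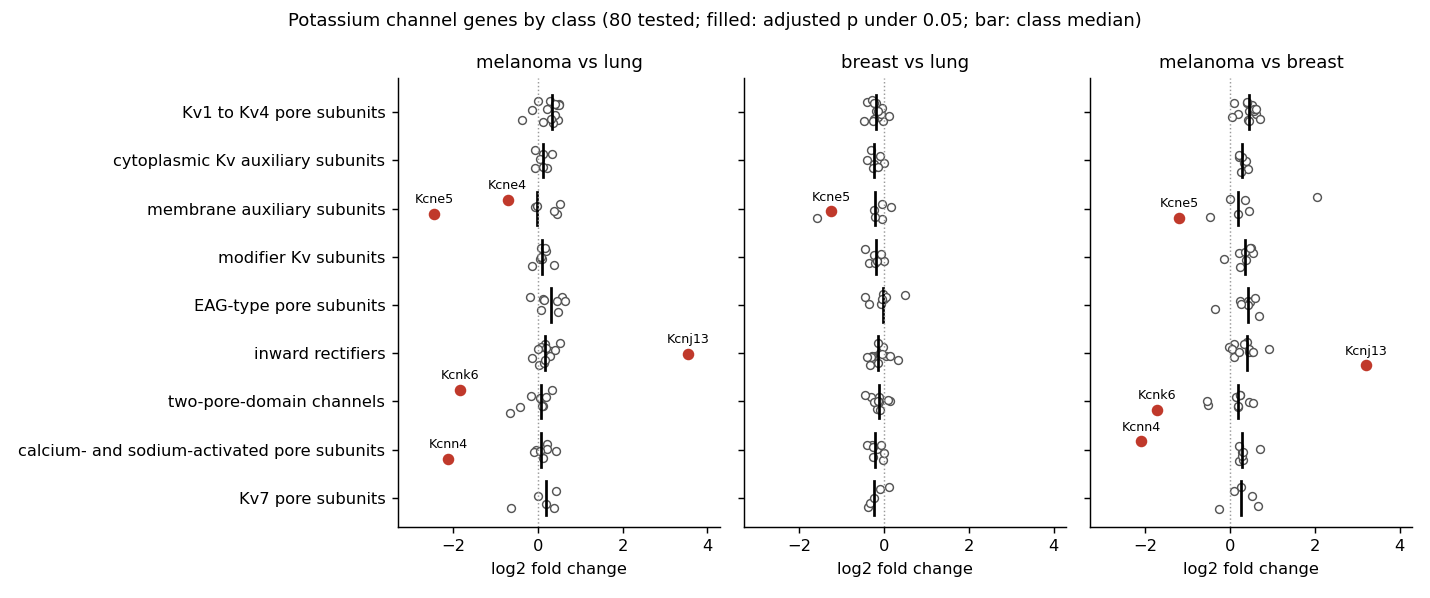
Log2 fold changes (x axes) of the 80 tested members in 9 classes (rows) for the 3 comparisons, with called members filled and named and a bar at each class median. Class medians lie at or to the right of -0.02 in melanoma against lung, left of 0 in breast against lung and right of 0 in melanoma against breast. Kcnj13, Kcnn4, Kcnk6 and Kcne5 lie outside these clusters where called, as does Kcne3, which was not called. Kcne4, a weak call in melanoma against lung, lies close to members not called, the lowest of them at -0.67.

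By class, the calls were among inward rectifiers (Kcnj13, of 13 tested), calcium- and sodium-activated pores (Kcnn4, of 8), K2P channels (Kcnk6, of 10) and membrane auxiliary subunits (Kcne5 and Kcne4, of 7). The class of calcium- and sodium-activated pores also takes in Kcnu1, placed there by gene name and not by gating. The other 5 classes, which hold 42 tested members of the Kv1 to Kv4, modifier Kv, Kv7, EAG-type and cytoplasmic auxiliary genes, had 0 calls with edgeR in each comparison. The class median of the EAG-type pores in breast against lung was -0.034, and 0.11 without melanoma 3, breast 18 and breast 19. Among these 42, an unadjusted p under 0.05 was reached by 1 member in melanoma against lung, 3 in breast against lung and 4 in melanoma against breast, and DESeq2 called 0, 0 and 2 of them. Without melanoma 3, breast 18 and breast 19 edgeR called 5, 1 and 2 of the 42, against 33.6%, 25.0% and 34.2% of all genes. Without melanoma 3 alone it called 3, 2 and 24, against 26.7%, 23.7% and 46.6% of all genes. All 24 in melanoma against breast were higher in melanoma, where 23.2% of all genes were called higher. Over all 80 members the median log2 fold change was 0.14 in melanoma against lung (60 positive), -0.15 in breast against lung (12 positive) and 0.31 in melanoma against breast (69 positive). The same medians over all genes tested were 0.02, -0.02 and 0.04. Over the 7 tested neuronal markers they were 0.13, -0.27 and 0.39. Over the 6 excitatory forebrain neuron markers they were 0.19, -0.28 and 0.46, and over the 6 striatal ones -0.02, -0.19 and 0.14. Whether the members and these markers differed in their change was not tested. With the per-library length trend removed, the medians were 0.15, -0.16 and 0.30 over the members and 0.05, -0.03 and 0.07 over all genes. Leaving out 1 library at a time, the median of the members ran from 0.056 (without melanoma 6, 51 positive) to 0.27 (without melanoma 3, 67 positive) in melanoma against lung. It ran from -0.23 (without breast 14, 10 positive) to -0.093 (without lung 10, 26 positive) in breast against lung, and from 0.29 (without melanoma 6) to 0.47 (without melanoma 3) in melanoma against breast.

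Kv1 to Kv4 pores, which repolarise neurons after a spike, held 25.1% of channel reads in melanoma, 22.5% in breast and 22.5% in lung. They were the class with most reads in 11 of the 18 libraries, and the cytoplasmic auxiliary subunits were in the other 7, melanoma 3, breast 18 and breast 19 among them. Of their 16 genes 14 were tested, with a median log2 fold change of 0.33 in melanoma against lung, -0.18 in breast against lung and 0.44 in melanoma against breast. Without melanoma 3, breast 18 and breast 19 these medians were 0.52, -0.0067 and 0.49. Kcna2, an axonal Kv1 pore with a transcript of 11582 bases, was at 149, 151, 38.0, 259, 266 and 276 CPM in melanoma libraries 1 to 6. Breast libraries 14 to 19 held 202, 162, 141, 112, 49.2 and 77.1 CPM, and lung libraries 7 to 11 and 13 held 86.2, 189, 73.9, 231, 119 and 123 CPM. The models overlapped, with melanoma 3 and breast 18 lowest of the 18. The log2 fold change was 0.47 ± 0.41 (SE) in melanoma against lung (95% interval -0.33 to 1.27, adjusted p = 0.49) and 0.62 ± 0.41 in melanoma against breast (95% interval -0.18 to 1.42, adjusted p = 0.27). Without melanoma 3 alone the log2 fold change in melanoma against breast was 0.89 (adjusted p = 0.037). Of 33 alternative settings, this was the only 1 that called Kcna2 there.

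The other Kv pores named here overlapped between the models as well. Kcna1, the Kv1 pore mutated in episodic ataxia, had medians of 45.0 CPM in melanoma (15.1 to 64.0), 30.6 CPM in breast (14.96 to 48.4) and 25.9 CPM in lung (17.3 to 47.2). Kcnc1, the Kv3 pore of fast-spiking neurons, had medians of 157 CPM in melanoma (39.0 to 207), 94.1 CPM in breast (54.7 to 141) and 95.7 CPM in lung (65.5 to 150.4). Its log2 fold change in melanoma against lung was 0.49 (adjusted p = 0.33) and without melanoma 3 it was 0.69 (adjusted p = 0.043). Kcnd2, the pore of the dendritic A-type current, had medians of 87.5 CPM in melanoma (28.1 to 120.3), 62.6 CPM in breast (36.8 to 80.4) and 67.7 CPM in lung (34.2 to 94.9). Kcna3, the Kv1.3 pore of T cells and of activated microglia, was at 1.33 to 7.81 CPM in melanoma, 2.38 to 7.95 CPM in breast and 2.32 to 7.30 CPM in lung.

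Several Kv7 pores carry the M-current, which restrains repetitive firing of neurons. Kcnq1, the Kv7 pore of heart and epithelia, was near the detection limit at 0.58 to 1.56 CPM in melanoma, 0.82 to 1.497 CPM in breast and 1.09 to 2.21 CPM in lung. It shares annotated exons with the antisense transcript Kcnq1ot1, and its log2 fold change in melanoma against lung was -0.64 ± 0.24 (adjusted p = 0.067). It was called without melanoma 2 (-0.86, adjusted p = 0.011) and with limma voom (adjusted p = 0.049), and without lung 13 it was -0.48 (adjusted p = 0.19).

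Among EAG-type pores, Kcnh2 encodes the ERG channel known from cardiac repolarisation. It had medians of 37.4 CPM in melanoma (13.9 to 50.7), 49.2 CPM in breast (32.7 to 55.7) and 31.6 CPM in lung (23.8 to 41.7). Its log2 fold change in breast against lung was 0.49 ± 0.23 (SE; adjusted p = 0.17), the largest positive one of any member there, and 0.60 without melanoma 3, breast 18 and breast 19 (adjusted p = 0.014). Kcnh4 was at 3.45 to 10.9 CPM in melanoma and 4.25 to 7.70 CPM in lung, and its log2 fold change of 0.46 (adjusted p = 0.21) was 0.62 without melanoma 3 (adjusted p = 0.030). The modifier Kv subunits, which form no channel alone and join Kv2 pores, had 8 tested members with a median log2 fold change of 0.09 in melanoma against lung and 0.36 in melanoma against breast, and 0.22 and 0.43 without melanoma 3, breast 18 and breast 19. Kcnv1, one of them, had medians of 60.8 CPM in melanoma (34.0 to 79.2), 44.6 CPM in breast (27.3 to 49.7) and 41.9 CPM in lung (33.0 to 61.2). Kcnf1, another, had medians of 95.7 CPM in melanoma (42.8 to 144), 72.6 CPM in breast (38.9 to 86.6) and 92.1 CPM in lung (74.2 to 123).

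Of the calcium-activated pores other than Kcnn4, Kcnma1 forms the large-conductance BK channel and has a transcript of 12094 bases. It was at 110.1, 100.2, 30.9, 194, 206 and 217 CPM in melanoma libraries 1 to 6. Breast libraries 14 to 19 held 134, 120.5, 106, 77.2, 37.8 and 52.4 CPM, and lung libraries 7 to 11 and 13 held 66.1, 141, 67.5, 176, 96.1 and 94.3 CPM. The models overlapped, and none of its log2 fold changes passed, with 0.42 in melanoma against lung (adjusted p = 0.53) and 0.70 in melanoma against breast (adjusted p = 0.20). Without melanoma 3 alone the log2 fold change in melanoma against breast was 0.96 (adjusted p = 0.023). Of 33 alternative settings, this was the only 1 that called Kcnma1 there. Kcnt1, a sodium-activated pore, had a log2 fold change of -0.39 in breast against lung (adjusted p = 0.21), with 41.9 to 77.3 CPM in breast and 55.6 to 97.5 CPM in lung.

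Kcnj10 encodes Kir4.1, the main potassium uptake channel of astrocytes, and Kcnj16 encodes Kir5.1, which joins it. Kcnj10 was at 166, 189.9, 55.9, 232, 297 and 296 CPM in melanoma libraries 1 to 6. Breast libraries 14 to 19 held 287, 276, 179, 160.5, 108 and 158 CPM, and lung libraries 7 to 11 and 13 held 166, 256, 147, 287, 232 and 270.1 CPM. The models overlapped throughout, with a log2 fold change of -0.14 ± 0.32 (SE) in melanoma against lung (95% interval -0.76 to 0.48, adjusted p = 0.82). In melanoma against breast it was 0.08 ± 0.32 (95% interval -0.54 to 0.70, adjusted p = 0.87). Kcnj16 had medians of 26.5 CPM in melanoma (10.9 to 36.2), 26.0 CPM in breast (20.4 to 30.9) and 24.7 CPM in lung (17.1 to 32.9), with a log2 fold change of 0.02 ± 0.23 in melanoma against lung (95% interval -0.43 to 0.48, adjusted p = 0.96). The 8 astrocyte markers summed to 2397 to 3675 CPM in melanoma libraries, 4255 to 5242 CPM in breast libraries and 4279 to 6211 CPM in lung libraries, with no overlap between melanoma and the others, and 3 of them were called lower in melanoma against lung (median log2 fold change of the 8 -0.26). Whether Kcnj10 and these markers differed in their change was not tested.

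The other inward rectifiers named here did not separate the models. Kcnj8, the Kir6.1 pore of pericyte ATP-sensitive channels, was at 3.68 to 8.62 CPM in melanoma, 3.63 to 6.96 CPM in breast and 4.32 to 5.79 CPM in lung. Kcnj2, the Kir2.1 pore found in neurons, endothelium and microglia, was at 8.97 to 17.5 CPM in melanoma, 9.28 to 15.99 CPM in breast and 9.48 to 12.9 CPM in lung. Kcnj4, the Kir2.3 pore, was at 51.4 to 112 CPM in melanoma, 43.5 to 76.2 CPM in breast and 59.4 to 98.9 CPM in lung. Its log2 fold change in melanoma against breast was 0.45 (adjusted p = 0.075), and 0.54 without melanoma 3, breast 18 and breast 19 (adjusted p = 0.021). Kcnj4 was called there in 9 of 33 alternative settings, among them the DESeq2 test. Kcnk1, the K2P channel TWIK-1 of neurons and astrocytes, was at 56.3 to 98.2 CPM in melanoma, 54.4 to 79.1 CPM in breast and 63.4 to 83.5 CPM in lung.

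**Figure D3:**
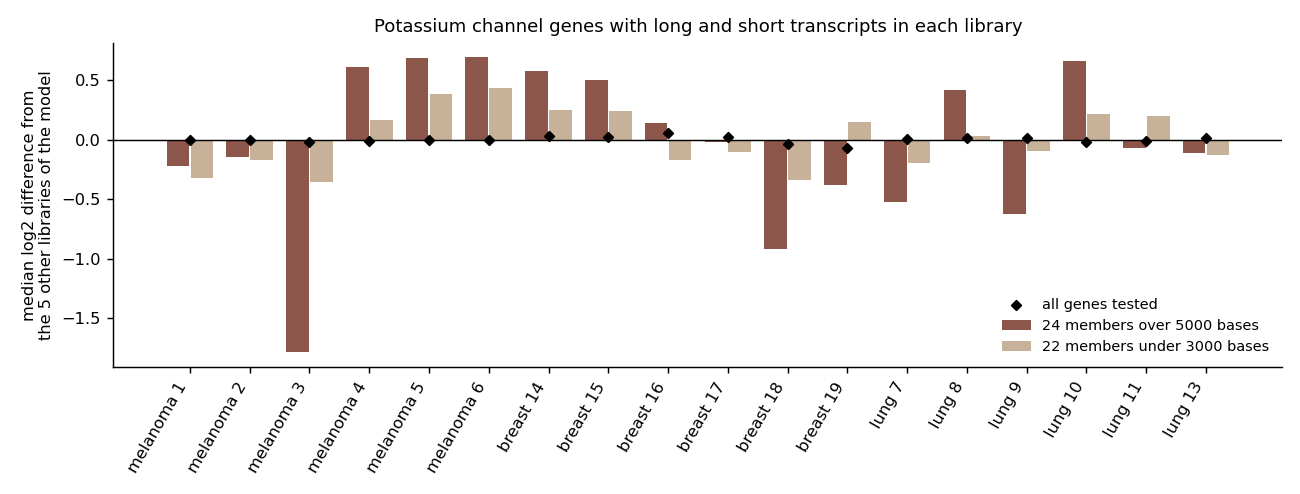
Median log2 difference (y axis) of members with transcripts over 5000 bases (24, dark bars), members under 3000 bases (22, light bars) and all tested genes (diamonds) in each library from the 5 other libraries of its model. In melanoma 3 the long members were at -1.79 and the short ones at -0.36, while all genes were at -0.01.

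How far a library stood from the others of its model differed between long and short transcripts. Melanoma 3 was the lowest of the 6 melanoma libraries for 60 of the 80 members, and breast 18 the lowest of the 6 breast libraries for 59, while in lung the lowest was lung 9 for 35 and lung 7 for 27. Set against the other 5 melanoma libraries, melanoma 3 had a median log2 difference of -0.84, which was -1.79 for the 24 members over 5000 bases and -0.36 for the 22 under 3000 bases. In breast 18 the median was -0.56 (long members -0.92, short members -0.34), and in breast 19 it was -0.09 (long -0.38, short 0.15). Lung libraries showed such a gap as well, with long members at -0.62 and short ones at -0.09 in lung 9, -0.52 and -0.20 in lung 7, and 0.67 and 0.22 in lung 10. The melanoma libraries differed also beyond melanoma 3. The channel sum was 4836, 5299 and 5517 CPM in melanoma 4, 5 and 6, against 3193, 3360.4 and 1771 CPM in melanoma 1, 2 and 3. In the same order the neuronal marker sum was 6214, 6595 and 6939 CPM in melanoma 4, 5 and 6 and 3946, 4622 and 3552 CPM in melanoma 1, 2 and 3. The melanocyte marker sum ran the other way, with 7261, 4600.5 and 3723 CPM in melanoma 4, 5 and 6 and 15202, 13630 and 23308 CPM in melanoma 1, 2 and 3. The part of tumour content in the spread of the channel genes was not tested.

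With the per-library length trend removed, melanoma against lung had 6 calls (background 27.0%), breast against lung 5 (22.1%) and melanoma against breast 8 (34.6%), with 8 for any difference (42.3%). A part of the trend stayed. The slope of log2 fold change per doubling of length fell from 0.093 to 0.037 in melanoma against lung. It went from -0.052 to -0.014 in breast against lung and from 0.145 to 0.051 in melanoma against breast. Kcnj13, Kcnn4, Kcnk6 and Kcne5 were among the calls in melanoma against breast, where Kcnab3, Kcnip1, Kcnj4 and Kcne3 were added as higher. Without melanoma 3, breast 18 and breast 19, the members called higher in melanoma against lung included Kcnj13, Kcnab3, Kcnc1, Kcnc2, Kcnh4, Kcnj9 and Kcnj12. Those called higher in melanoma against breast included Kcnj13, Kcnab3, Kcnj4, Kcnj9, Kcnj11, Kcnj12, Kcnmb2 and Kcnu1, and the 2 comparisons share the melanoma libraries. Kcnab3, a cytoplasmic Kv beta subunit with a transcript of 2538 bases, was at 31.0 to 69.6 CPM in melanoma, 25.0 to 46.0 CPM in breast and 33.9 to 45.1 CPM in lung. Its log2 fold change was 0.33 in melanoma against lung (adjusted p = 0.21) and 0.42 in melanoma against breast (adjusted p = 0.085), and 0.45 (adjusted p = 0.021) and 0.46 (adjusted p = 0.030) without melanoma 3, breast 18 and breast 19. These members were named after their values were seen.

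**Figure D4:**
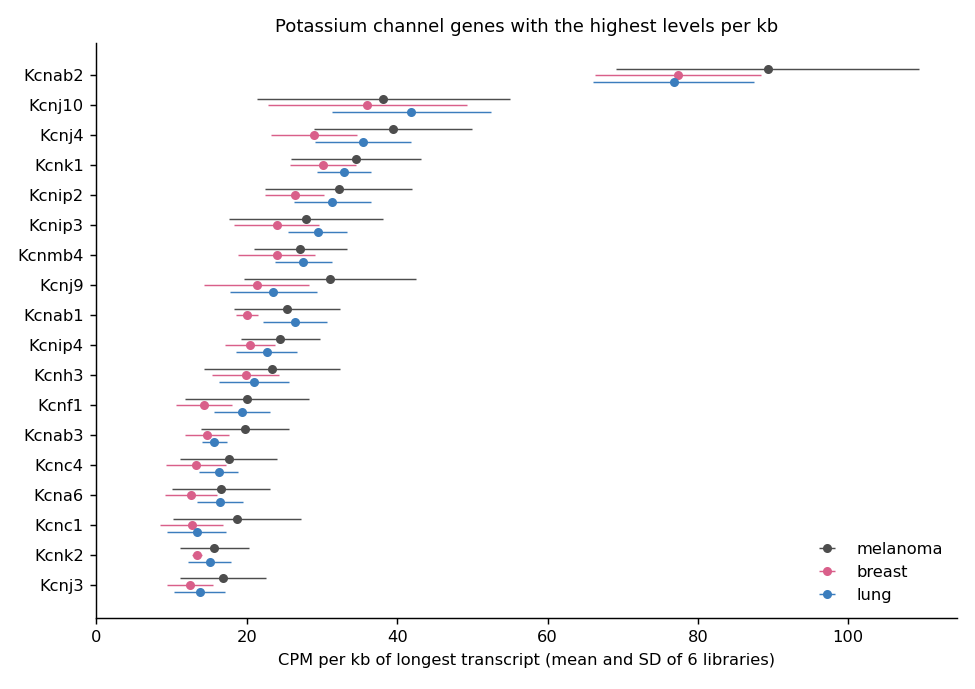
CPM per kb of the longest transcript (x axis, mean and SD of 6 libraries per model) of 18 of the 20 members with the highest level, in rank order from the top. Kcnab2 was highest at 81.1 CPM per kb over 18 libraries, and the SDs of the 3 models overlap in each row but that of Kcnab1, where breast is below lung.

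Levels of different genes were compared per kb of the longest transcript. Kcnab2, the Kv beta2 subunit that binds Kv1 pores, was highest at 81.1 CPM per kb over the 18 libraries and stayed first by the median transcript length. Its CPM was 237 to 432 in melanoma, 221 to 345 in breast and 257 to 350.3 in lung. Kcnj10 followed at 38.7 CPM per kb, Kcnj4 at 34.6, Kcnk1 at 32.5 and Kcnip2 (a calcium-binding partner of Kv4 pores) at 30.0, and these neighbours lay within the SD of each other in each model. By the median transcript length their ranks were 11, 15, 10 and 2, so the order among them depended on the length used. Kcnab1, another Kv beta subunit, had a log2 fold change of -0.40 in breast against lung (adjusted p = 0.097), with 77.2 to 94.6 CPM in breast and 94.3 to 139 CPM in lung. It was called there in 4 of 33 alternative settings: in the fit of those 12 libraries (adjusted p = 0.010), with the length trend removed (0.038), without melanoma 3 (0.032) and without melanoma 6 (0.045).

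The 12 members not tested were Kcna7, Kcna10, Kcng3, Kcnj1, Kcnj15, Kcne1, Kcnk7, Kcnk15, Kcnk16, Kcnk18, Kcnmb3 and Kcnv2, and Kcnmb3 and Kcnk16 had no read in any library. A fit with no filter on low counts, chosen for these members after seeing the data, called 3 of them, where the background was 13.5% in melanoma against lung, 10.3% in breast against lung and 16.9% in melanoma against breast. Kcnj15, an inward rectifier, was at 0.07 to 0.37 CPM in melanoma, 0.24 to 0.82 CPM in breast and 0.31 to 1.93 CPM in lung, with an adjusted p of 0.00052 in melanoma against lung and 0.027 in breast against lung. Kcnk7 was at 0.00 to 0.09 CPM in melanoma and 0.31 to 0.50 CPM in lung (adjusted p = 0.0013). Kcnk15 was at 0.00 to 0.50 CPM in melanoma and 0.00 to 0.08 CPM in breast (adjusted p = 0.032). Many of these values lie at or under the 3-read floor, so the fitted folds are not given.

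The genes that work with potassium channels were described from 5 lists. Of the 9 sodium-potassium pump genes, which bring potassium back into cells, 1 was called higher and 1 lower in melanoma against lung, with the same split in melanoma against breast, where 23.2% and 28.9% of all genes were called. These shares, and 18.3% in breast against lung, are the background of each list that follows. In breast against lung edgeR and DESeq2 each called 0, with 1 gene at an unadjusted p under 0.05. Fxyd1, a pump regulator, was at 21.0 to 26.7 CPM in melanoma, 45.0 to 72.6 CPM in breast and 50.04 to 84.5 CPM in lung (log2 fold change -1.36 in melanoma against lung, adjusted p = 3.7e-07). For Fxyd1 melanoma did not overlap with the other models.

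Of the 5 cation-chloride cotransporters, 1 was called higher and 1 lower in melanoma against each other model. Slc12a4, a potassium-chloride cotransporter, was at 24.1 to 34.9 CPM in melanoma, 43.1 to 69.2 CPM in breast and 43.0 to 61.2 CPM in lung (log2 fold change -0.90 in melanoma against lung, adjusted p = 1.3e-05). Slc12a7, another, was at 30.6 to 149.8 CPM in melanoma, 15.97 to 35.8 CPM in breast and 27.1 to 38.8 CPM in lung (1.21, adjusted p = 0.0070). Of the 8 genes of the astrocyte endfoot complex, which anchors Kir4.1 beside blood vessels, 1 was called higher and 2 lower in melanoma against each other model. Aqp4, the water channel of that complex and also 1 of the astrocyte markers, was at 64.4 to 168 CPM in melanoma, 184 to 259 CPM in breast and 153 to 291 CPM in lung (log2 fold change -0.85 in melanoma against lung, adjusted p = 0.0053). Sntb1, a syntrophin, was at 12.3 to 28.5 CPM in melanoma, 3.14 to 7.402 CPM in breast and 2.37 to 6.56 CPM in lung (2.06, adjusted p = 5.6e-06). Of 12 tested genes of Kv channel complexes 1 was called, as lower in breast against lung: Dlg1, a scaffold protein, with 122 to 153 CPM in breast and 162 to 214 CPM in lung (log2 fold change -0.45, adjusted p = 0.021). In melanoma against breast 0 of these 12 were called (1 at an unadjusted p under 0.05, and DESeq2 called 1), but without melanoma 3 edgeR called 8 of them, all higher in melanoma, where 23.2% of all genes were called higher. The 4 tested accessory genes of ATP-sensitive and BK channels had 0 calls with edgeR in every comparison, with 1 at an unadjusted p under 0.05 in melanoma against breast, where DESeq2 called 1, Lrrc55. Without melanoma 3 edgeR called 2 of the 4 higher in melanoma against breast. Lrrc55, an auxiliary subunit of the BK channel, was at 9.32 to 42.8 CPM in melanoma and 9.79 to 24.9 CPM in breast (log2 fold change 0.75 in melanoma against breast, adjusted p = 0.095).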

How the data were processed

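Poly(A)+ RNA of peritumoral brain from 18 mice was read in directional libraries, per the labels' protocols. The submitters' processing notes name bcl2fastq and the build GRCm39. The sources used here give no aligner, counter, annotation or strand setting. The deposited count table holds raw whole-number counts per Ensembl gene. The deposited CPM table holds CPM by symbol for 16925 genes. Whole reads were recovered from 100% of its CPM values (tolerance 0.01) and 99.8% equalled the counts. Symbols and lengths came from GENCODE M21 on GRCm38.

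The counts were tested in edgeR 4.0.16 under R 4.3.3 (robust quasi-likelihood, TMM, filterByExpr by model, all 18 libraries) and adjusted by Benjamini-Hochberg. All 3 pairs of models were compared, and any difference among them was tested. Alternatives used other scalings, filters and tests (DESeq2 1.42.0, limma 3.58.1), length correction and left-out libraries. The fit was tested on simulated data. No 2 libraries of a model agreed within counting noise (smallest chi-square per degree of freedom 2.68).

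Named members have at least 1 CPM and are the 6 largest called changes each way, the smallest p per class and 14 listed genes, a part of which is described; some genes are not reported here. Partner genes are the 2 with the smallest p per list. Members and lists were chosen with earlier results of these data known. Intervals cover only the error of the fit, which uses the spread between libraries of a model, and floors cover only counting error.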

Additional observations from a re-analysis of the deposited data

Results flagged for a closer look

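Within each model, the highest or lowest library was set against the other 5 for 30 named members, 90 groups in all, of which 2 stood apart by Dixon's criterion for 6 values (0.625). Chance gives about 1 in 20 such groups. Kcnj13 was at 105 CPM in melanoma replicate 1, where the next melanoma library had 33.5 CPM and the lowest 20.5 CPM. The gap was 0.846 of the range. Kcnj13 in the other 5 melanoma libraries was also above all 12 libraries of the other models. Kcnq1 was at 2.21 CPM in lung replicate 13, where the next lung library had 1.49 CPM and the lowest 1.09 CPM. The gap was 0.638 of the range.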

How the results depend on the processing

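No paired analysis was possible because each library number occurs in 1 model only. The calls of Kcnj13, Kcnn4, Kcnk6 and Kcne5 in melanoma against both others held under every alternative run, and Kcne5 in breast against lung likewise. Kcne4 lost its call in melanoma against lung under 11 alternatives. Counts of members called moved as follows. Without melanoma 3, breast 18 and breast 19 they were 12 in melanoma against lung, 3 in breast against lung, 12 in melanoma against breast and 17 for any difference. With the length trend removed by offsets in the same edgeR model, they were 5 in breast against lung, 8 in melanoma against breast and 8 for any difference. Breast against lung had 2 with no filter and 4 in a fit of its 12 libraries. Melanoma against breast had 7 with DESeq2 size factors (4 higher and 3 lower, where TMM gave 1 and 3), 9 with the DESeq2 test and 7 with recovered reads, an alternative chosen after seeing the data. Leaving out 1 library at a time gave 4 to 8 in melanoma against lung, 1 to 4 in breast against lung, 4 to 40 in melanoma against breast and 4 to 31 for any difference, with the highest counts without melanoma replicate 3. The cause was not tested.

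Log2 differences near 0, called nowhere, changed sign. Without the 3 libraries these were Kcna1 (0.21), Kcna2 (0.10) and Kcnc1 (0.085) in breast against lung, Kcnj10 in melanoma against lung (0.065) and Kcnj16 in melanoma against breast (0.15). With the length trend removed they were Kcnj10 (-0.021) and Kcnj2 (-0.017) in melanoma against breast. With limma voom they were Kcnj16 in melanoma against lung (-0.038), Kcnj10 in melanoma against breast (-0.015) and Kcnn4 in breast against lung (0.025), the last also with limma on log2(CPM + 1) (0.026) and log2(CPM + 0.1) (0.029). Kcnj16 in melanoma against breast was 0.010 with DESeq2 size factors and the DESeq2 test, 0.020 with upper-quartile factors, 0.025 with no filter and 0.013 with recovered reads. Leaving out 1 library gave, in breast against lung, -0.21 to 0.16 for Kcna1, -0.34 to 0.066 for Kcna2, -0.088 to 0.32 for Kcna3, -0.20 to 0.063 for Kcnc1, -0.041 to 0.15 for Kcnj16, -0.18 to 0.049 for Kcnj8 and -0.12 to 0.091 for Kcnn4. In melanoma against lung it gave -0.26 to 0.065 for Kcnj10, -0.11 to 0.18 for Kcnj16 and -0.0019 to 0.15 for Kcnk1, and in melanoma against breast -0.11 to 0.18 for Kcnj16 and -0.025 to 0.16 for Kcnj2. Of 2112 values in all, 2008 kept their direction and side of the threshold, 11 were weaker, 38 stronger and 55 changed sign. Depth limits members under about 1 CPM.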
